A study of Oryza sativa Japonica Group with 8 samples.

Results

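The genes described here are the SAUR genes (small auxin up RNA) whose transcripts the authors listed as changed in young panicles of a rice line with less OsDCL3b, a Dicer-like enzyme that cuts double-stranded RNA into small RNAs. A gene was included when its description in either deposited list of changed genes contained the word SAUR, which held for 6 of 1174 listed genes. All 6 came from the list of 530 genes at lower levels in the knockdown, and none from the list of 644 genes at higher levels. The members were therefore chosen by the same knockdown against wild type contrast that is described below, so their fold changes are a description and no evidence of their own.

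SAUR genes are a large plant family of short, mostly intronless genes, many of whose transcripts accumulate within minutes of an auxin pulse. In Arabidopsis several SAUR proteins bind and inhibit type 2C protein phosphatases at the plasma membrane, which keeps the proton pump active, acidifies the cell wall and allows expansins to loosen it. Members of the family are widely used as reporters of auxin response and of growth by cell expansion. The roles of the individual rice genes named here are not stated in the files, beyond their membership of the family.

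Messenger RNA was compared between the dcl3b knockdown mutant (3 libraries) and wild type (3 libraries), both of Oryza sativa subsp. Japonica grown in a paddy field, from young panicles taken before heading. For small RNA there was 1 library per genotype. How the knockdown was made, whether the line is a single transformant and whether the libraries came from separate plants are not stated in the labels, so the spread between libraries may be technical. The knocked down gene itself, LOC_Os10g34430, stood at 0.39, 0.50 and 0.44 FPKM in knockdown replicates 1 to 3, against 0.97, 0.98 and 0.88 FPKM in the wild type. FPKM is a count of fragments scaled to transcript length and library size, and the read totals behind it were not in the files. In the authors' deposited table the listed genes differ by at least 1 on the log2 scale in either direction, with adjusted p-values up to 0.05, and SAUR genes outside the lists were not analysed here.

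The 6 SAUR transcripts were all lower in the knockdown, at 28.8% to 48.4% of their wild type means. The members were OsSAUR37 (LOC_Os09g26590), OsSAUR6 (LOC_Os02g07110), OsSAUR22 (LOC_Os04g56680), OsSAUR8 (LOC_Os02g24700), OsSAUR55 (LOC_Os09g37500) and OsSAUR20 (LOC_Os04g51890), in falling order of their wild type level. By their locus names they lie on chromosomes 2, 4 and 9. For each of the 6, the highest of the 3 knockdown values lay below the lowest of the 3 wild type values. The same held for 89.1% of the 530 genes listed as lower, so that share sets the background against which the 6 of 6 is read. With 3 libraries against 3, the smallest p that an exact two-sided permutation test allows for 1 gene is 0.10. The re-test of the listed genes with limma, which serves to compare settings, gave adjusted p-values of at most 0.05 for all 6 SAUR genes and for 90.9% of the genes listed as lower. In bulk tissue, fewer cells that express a gene and less RNA per cell cannot be told apart.

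The most abundant member was OsSAUR37. It stood at 6.25, 7.27 and 6.46 FPKM in knockdown replicates 1 to 3, against 14.88, 12.94 and 13.49 FPKM in wild type. The 3 libraries of each genotype lay close together and the genotypes were far apart, with 6.66 ± 0.539 FPKM in the knockdown and 13.77 ± 1.0 FPKM in wild type (SD, n = 3 each). The authors' deposited table put its log2 fold change at -1.04 (adjusted p = 1.39e-07), which was the smallest adjusted p of the family together with the smallest fold change.

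OsSAUR6 stood at 3.09, 4.36 and 4.30 FPKM in the knockdown, against 11.17, 7.33 and 7.45 FPKM in wild type. Wild type replicate 1 was well above the other wild type libraries, and the highest knockdown library still lay below the lowest wild type library. The means were 3.92 ± 0.717 FPKM in the knockdown and 8.65 ± 2.18 FPKM in wild type (SD, n = 3 each), and the authors' deposited table put its log2 fold change at -1.14 (adjusted p = 0.000256). OsSAUR8 stood at 2.59, 2.79 and 2.27 FPKM in the knockdown, against 6.40, 4.43 and 5.47 FPKM in wild type. Its coefficient of variation was 10.3% over the knockdown libraries and 18.1% over the wild type libraries, and the genotypes did not overlap. The authors' deposited table put the log2 fold change of OsSAUR8 at -1.07 (adjusted p = 0.000499).

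OsSAUR22 stood at 2.36, 3.04 and 1.67 FPKM in the knockdown, against 7.82, 5 and 7.41 FPKM in wild type. Replicate 2 was the highest of the knockdown and the lowest of wild type, so the libraries numbered 2 were the nearest pair across the genotypes. The means were 2.36 ± 0.685 FPKM in the knockdown and 6.74 ± 1.52 FPKM in wild type (SD, n = 3 each), and the authors' deposited table put its log2 fold change at -1.50 (adjusted p = 4.33e-06).

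OsSAUR55 and OsSAUR20 were the least abundant. OsSAUR55 stood at 1.11, 0.95 and 0.56 FPKM in the knockdown, against 2.39, 1.95 and 1.88 FPKM in wild type, and the authors' deposited table put its log2 fold change at -1.20. Its adjusted p there, 0.0110, was the largest of the 6. OsSAUR20 stood at 0.68, 0.31 and 0.24 FPKM in the knockdown, against 1.82, 1.26 and 1.19 FPKM in wild type. The authors' deposited table put its log2 fold change at -1.73 (adjusted p = 0.00166), the largest of the family. It also had the widest spread in the knockdown, 57.7% of the mean, with replicate 1 apart from the other knockdown libraries. Replicate 1 was the highest library of both genotypes for both of these genes.

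**Figure D1:**
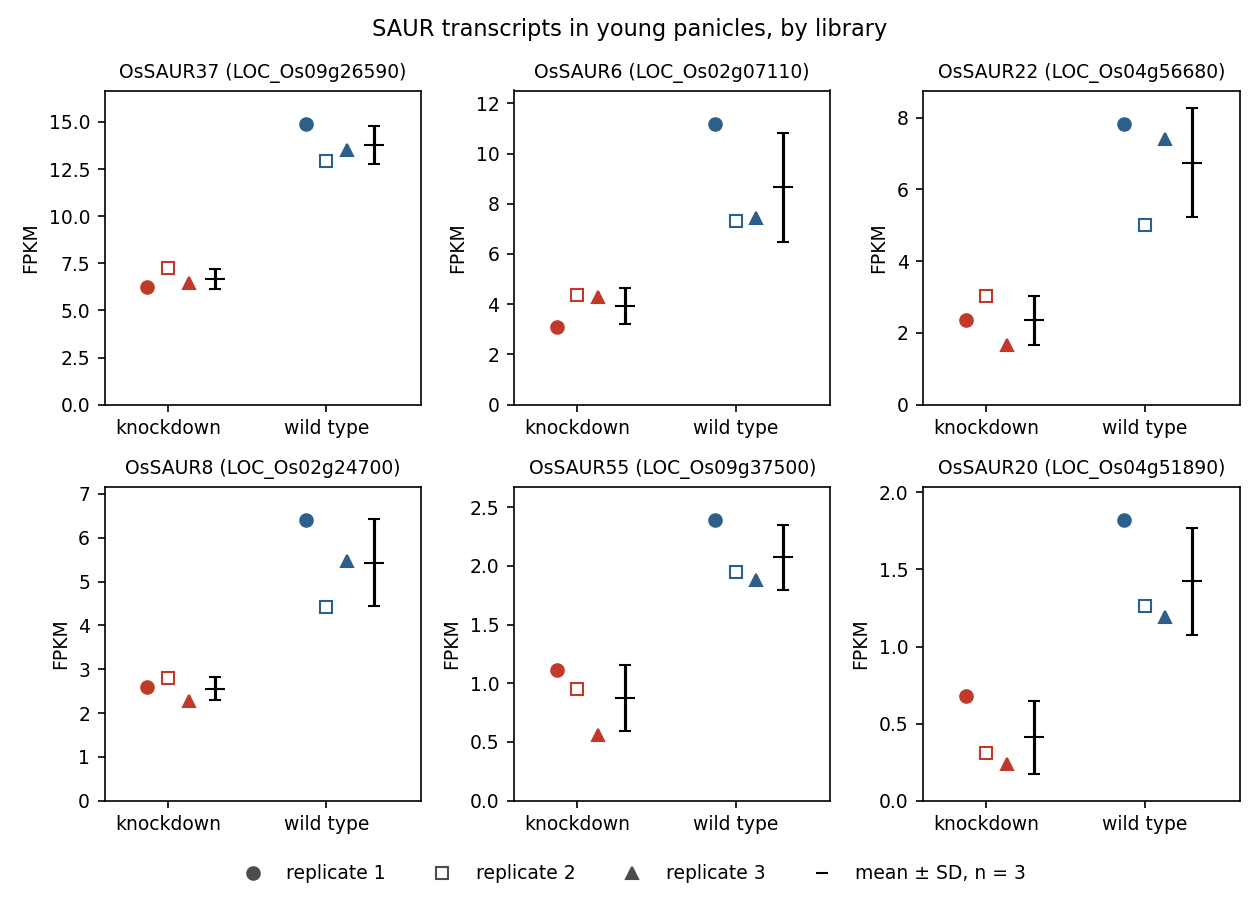
FPKM of the 6 SAUR genes in each library, 1 panel per gene with its own linear axis that starts at 0; knockdown libraries are red, wild type libraries blue, symbols give the replicate number and bars the mean ± SD (n = 3). No panel has a knockdown value at or above a wild type value, and wild type replicate 1 is the highest library in each.

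The fold changes of the SAUR genes lay on both sides of the middle of the list they came from. In the authors' deposited table the median of their log2 fold changes was -1.17, against -1.44 over all 530 genes listed as lower. OsSAUR20 and OsSAUR22 fell by more than that median, ranking 159 and 238 of the 530 by the size of the fall, and the other 4 ranked 389 to 503. None of the 6 reached a log2 fold change of -2 there, and 17.0% of the genes listed as lower did, a share at which 0 of 6 is no result about the members. The median of their wild type means was 6.09 FPKM, against 1.83 FPKM over the 530 genes. OsSAUR37, OsSAUR6, OsSAUR22 and OsSAUR8 ranked 99 to 169 of the 530 by that level, while OsSAUR55 ranked 252 and OsSAUR20, at 1.42 FPKM, ranked 289, below the median. Genes at low levels need a larger fold change to be called, so the medians of the fold change are not like for like. An adjusted p of at most 0.01 in the authors' deposited table was reached by 5 of the 6, OsSAUR55 being the exception, and by 61.9% of the 530 genes. The members nearest to the authors' limit on the fold change were OsSAUR37 and OsSAUR8, and genes just outside the limit were not analysed here.

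**Figure D2:**
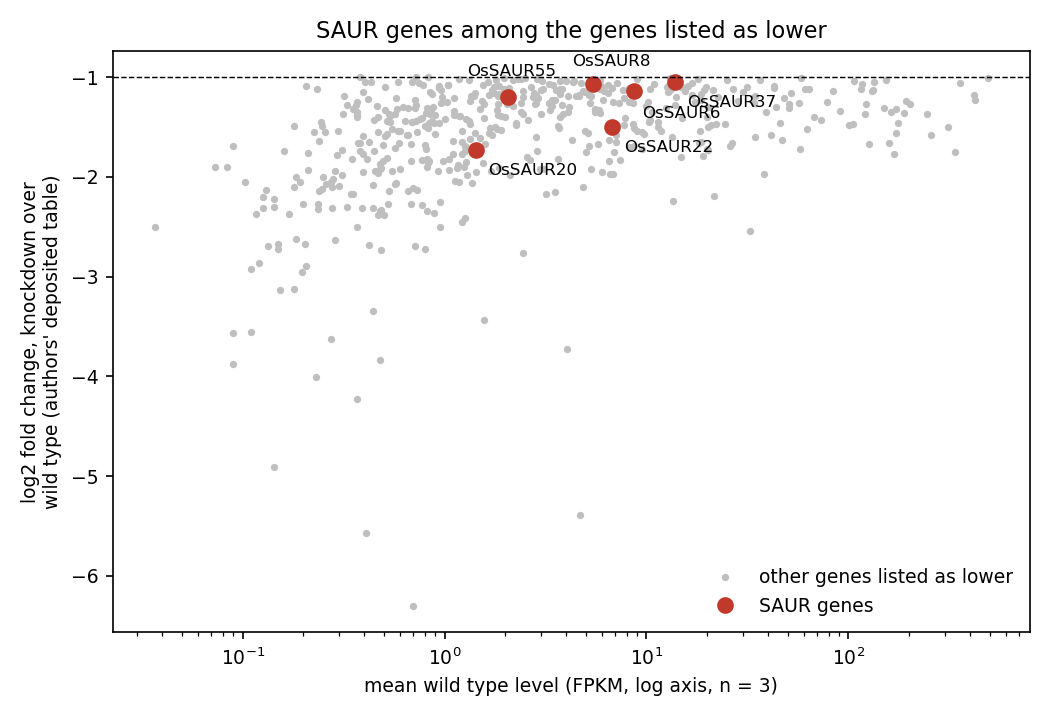
Deposited log2 fold change (knockdown against wild type) from the authors' deposited table, plotted against the mean wild type level in FPKM (log axis, n = 3) for the genes listed as lower; red points are the 6 SAUR genes and the dashed line marks a fold change of -1. The SAUR genes lie between -1.73 and -1.04, at 1.42 to 13.77 FPKM, with OsSAUR37, OsSAUR8, OsSAUR6 and OsSAUR55 nearest to the dashed line.

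Summed over the 6 genes, SAUR transcript levels were 16.1, 18.7 and 15.5 FPKM in knockdown replicates 1 to 3, against 44.5, 32.9 and 36.9 FPKM in wild type. The sum was 16.8 ± 1.72 FPKM in the knockdown and 38.1 ± 5.88 FPKM in wild type (SD, n = 3 each), or 44.0% of the wild type level. All 6 members had been listed with a fall of at least 1 on the log2 scale, so a fall of the sum was fixed by their choice. That limit left out any member that was unchanged or higher, which narrows how far the shares could differ. Within that limit, the make-up of the sum was much alike in both genotypes. OsSAUR37 contributed 39.8 ± 1.63% of it in the knockdown and 36.4 ± 2.93% in wild type, and OsSAUR6 contributed 23.4 ± 4.26% and 22.5 ± 2.47% in the same order. The contribution of OsSAUR22 was 13.9 ± 2.81% in the knockdown and 17.6 ± 2.45% in wild type. That of OsSAUR20 was 2.48 ± 1.52% in the knockdown and 3.72 ± 0.444% in wild type. For all 6 members the shares of the knockdown libraries overlapped those of the wild type libraries. For OsSAUR20 the overlap rested on knockdown replicate 1, at 4.23%, against 1.66% and 1.55% in replicates 2 and 3.

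The order of the levels was nearly the same in both genotypes. In the knockdown OsSAUR37 came first, then OsSAUR6, then OsSAUR8 and OsSAUR22, whose libraries overlapped, and then OsSAUR55 and OsSAUR20, whose libraries overlapped too. In wild type OsSAUR37 again lay above the others, the libraries of OsSAUR6 and OsSAUR22 overlapped, as did those of OsSAUR22 and OsSAUR8, and OsSAUR55 and OsSAUR20 followed without an overlap. OsSAUR22 averaged 2.36 FPKM and OsSAUR8 2.55 FPKM in the knockdown, against 6.74 and 5.43 FPKM in wild type, so this pair changed places, within the spread of the libraries in both genotypes.

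Between the libraries of 1 genotype the members showed 2 patterns. The spread between libraries also enters the adjusted p that limited the lists, so these patterns are not independent of the choice of genes. Replicate 2 was the highest of the knockdown and the lowest of wild type for OsSAUR37, OsSAUR6, OsSAUR22 and OsSAUR8. This pattern was shared by 205 of the 530 genes listed as lower (38.7%), so it was common in these libraries. In OsSAUR6 it rested on near ties of replicates 2 and 3, at 4.36 and 4.30 FPKM in the knockdown and 7.33 and 7.45 FPKM in wild type. OsSAUR55 and OsSAUR20 had replicate 1 as the highest and replicate 3 as the lowest library in both genotypes. Wild type replicate 1 was the highest wild type library for all 6 members, and for 181 of the 530 genes listed as lower (34.2%). What sets these libraries apart is not stated in the labels, and its part in the SAUR values was not tested.

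The deviations of each library from its genotype mean, on the log2(FPKM + 0.5) scale, followed this grouping in part. Over the 6 libraries, Pearson's r was 0.32 to 0.91 for the 6 pairs among the first 4 genes (Spearman's rho 0.66 to 0.94) and 0.85 for OsSAUR55 with OsSAUR20 (rho 0.94). It was -0.03 to 0.65 for the 8 pairs across the groups (rho -0.26 to 0.43). The ranges overlapped, since OsSAUR6 and OsSAUR22 had an r of 0.32. Every pair uses the same 6 libraries and the groups were seen in the same values, so no test was made.

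**Figure D3:**
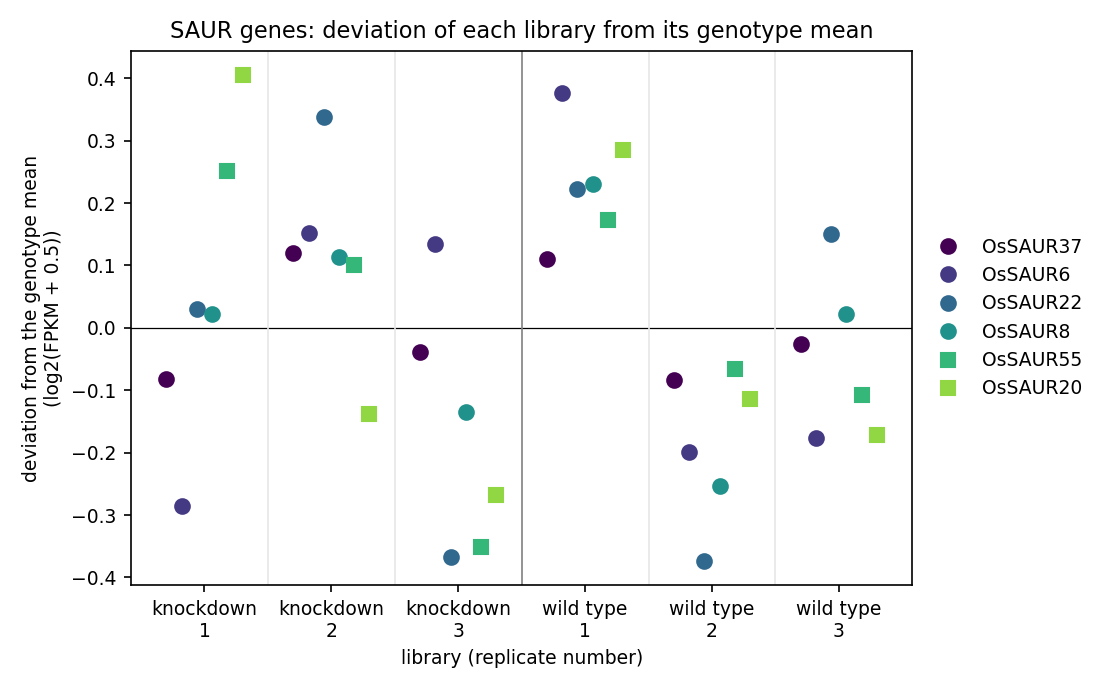
Deviation of each library from the mean of its genotype on the log2(FPKM + 0.5) scale for the 6 SAUR genes; circles are OsSAUR37, OsSAUR6, OsSAUR22 and OsSAUR8, and squares are OsSAUR55 and OsSAUR20. In the knockdown the circles are highest at replicate 2 and the squares at replicate 1. In wild type all 6 genes are highest at replicate 1, with the circles lowest at replicate 2 and the squares at replicate 3. For OsSAUR6, replicates 2 and 3 nearly tie in both genotypes.

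Among 538 other listed genes with a mean of at least 1 FPKM, 5 had within-genotype deviations most like the mean deviation of the SAUR genes over the 6 libraries. They were an undescribed gene, LOC_Os03g16600 (r = 0.99), a gene with a VQ domain, LOC_Os05g41250 (r = 0.97), a gene described as ligA, LOC_Os07g46950 (r = 0.96), an expansin gene, LOC_Os02g44108 (r = 0.93), and OsGH3.9, LOC_Os07g38890 (r = 0.85). Spearman's rho was 0.83 to 1 for these 5, and r was 0.86 to 0.99 without the 2 libraries farthest from the median. Over the 538 genes the median r was 0.14 and the upper quartile 0.54. The 5 were picked as the highest of that ranking over 6 libraries, so the size of their r is no evidence of its own. The mean deviation also averages the 2 patterns described above. LOC_Os07g46950 was listed as higher in the knockdown, where the authors' deposited table puts its log2 fold change at 2.09, and the other 4 as lower, so likeness within a genotype did not go with 1 direction between genotypes.

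Of the other genes with an auxin description, 4 were listed, of which 1 was lower and 3 were higher in the knockdown. Over all 1174 listed genes, 45.1% were lower. OsGH3.9 was the lower one. GH3 enzymes join auxin to amino acids, which for most conjugates takes the hormone out of its active form, and the files describe OsGH3.9 as a probable indole-3-acetic acid-amido synthetase. It stood at 0.66, 0.94 and 0.50 FPKM in the knockdown, against 2.09, 1.55 and 1.90 FPKM in wild type. The authors' deposited table put its log2 fold change at -1.38 (adjusted p = 0.000107), a value within the range of the SAUR genes.

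OsGH3.2 (LOC_Os01g55940), a gene of the same enzyme family, was higher. It stood at 0.77, 0.26 and 0.75 FPKM in the knockdown, against 0.11, 0.20 and 0.09 FPKM in wild type, and the authors' deposited table put its log2 fold change at 2.12 (adjusted p = 0.000401). Knockdown replicate 2 lay only just above the highest wild type library, which was also replicate 2. LOC_Os04g12720, described as an indole-3-acetate beta-glucosyltransferase, an enzyme class that stores auxin as a glucose ester, was measured at 0.74, 0.09 and 0.02 FPKM in knockdown libraries and listed at 0 in all 3 wild type libraries. Its level in the knockdown thus came mostly from replicate 1. LOC_Os07g34070, named after an auxin-induced protein called 5NG4, stood at 1.33, 0.27 and 0.31 FPKM in the knockdown, against 0.13, 0.10 and 0.09 FPKM in wild type, with replicate 1 again far above the other knockdown libraries. The authors' deposited table put its log2 fold change at 2.56 (adjusted p = 0.00511). These 3 genes reached at most 0.20 FPKM in a wild type library. In each of the 3 the lowest knockdown library lay above the highest wild type library, as it did in 84.6% of the genes listed as higher. In the limma re-test, 2 of the 4 other auxin-related genes had an adjusted p of at most 0.05 (OsGH3.9 and OsGH3.2), as did 84.9% of all listed genes. OsGH3.2 lost that without knockdown replicate 1 or 3 or wild type replicate 1 or 3, with adjusted p-values of 0.0756 to 0.0843. In those settings only 53.6% to 57.1% of all listed genes had an adjusted p of at most 0.05. No listed gene was described as an Aux/IAA repressor, an auxin response factor, an auxin efflux carrier or a TIR1 receptor, the core of auxin perception and transport, and the levels of such genes were not analysed here.

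Genes of wall loosening, the process that SAUR proteins are known to act on in Arabidopsis, were mostly listed as lower. Of 14 listed genes with a description of an expansin, a glucanase or a pectinesterase, 12 were lower and 2 higher, where 45.1% of all listed genes were lower. The 12 include a beta-glucosidase gene, LOC_Os09g31430, whose description names an exoglucanase. The words xyloglucan, endotransglucosylase and plasma membrane ATPase, searched for as well, matched no listed gene. Expansins, which loosen the bonds between wall polymers, made up 6 of the 12 and 1 of the 2. In the authors' deposited table the log2 fold changes of the lower expansins ran from -1.70 to -1.02. Together these 6 genes summed to 28.9 to 41.0 FPKM in the knockdown libraries, against 54.7 to 90.7 FPKM in the wild type libraries. In all 6, replicate 2 was the highest of the knockdown and the lowest of wild type, as in 4 of the SAUR genes. The same held for 38.7% of the 530 genes listed as lower.

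The most abundant expansin, LOC_Os02g44108, stood at 12.9, 13.7 and 10.1 FPKM in the knockdown, against 28.4, 20.4 and 26.0 FPKM in wild type, and the authors' deposited table put its log2 fold change at -1.02 (adjusted p = 5.02e-08). The next, LOC_Os02g51040, stood at 8.49, 10.22 and 8.99 FPKM in the knockdown, against 24.80, 12.91 and 21.66 FPKM in wild type, and the authors' deposited table put its log2 fold change at -1.10 (adjusted p = 1.12e-05). Both had no overlap between genotypes, as had all of the lower genes of the wall loosening group but 1, a beta-expansin (LOC_Os04g44780). That is 11 of 12, where the share over all genes listed as lower was 89.1%. The 1 listed gene for a type 2C protein phosphatase, the class that Arabidopsis SAUR proteins inhibit, was LOC_Os04g42260. It stood at 0.85, 2.53 and 0.82 FPKM in the knockdown, against 3.52, 2.30 and 4.45 FPKM in wild type, so its genotypes overlapped at replicate 2. The files do not say whether it belongs to the subclass that SAUR proteins bind.

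**Figure D4:**
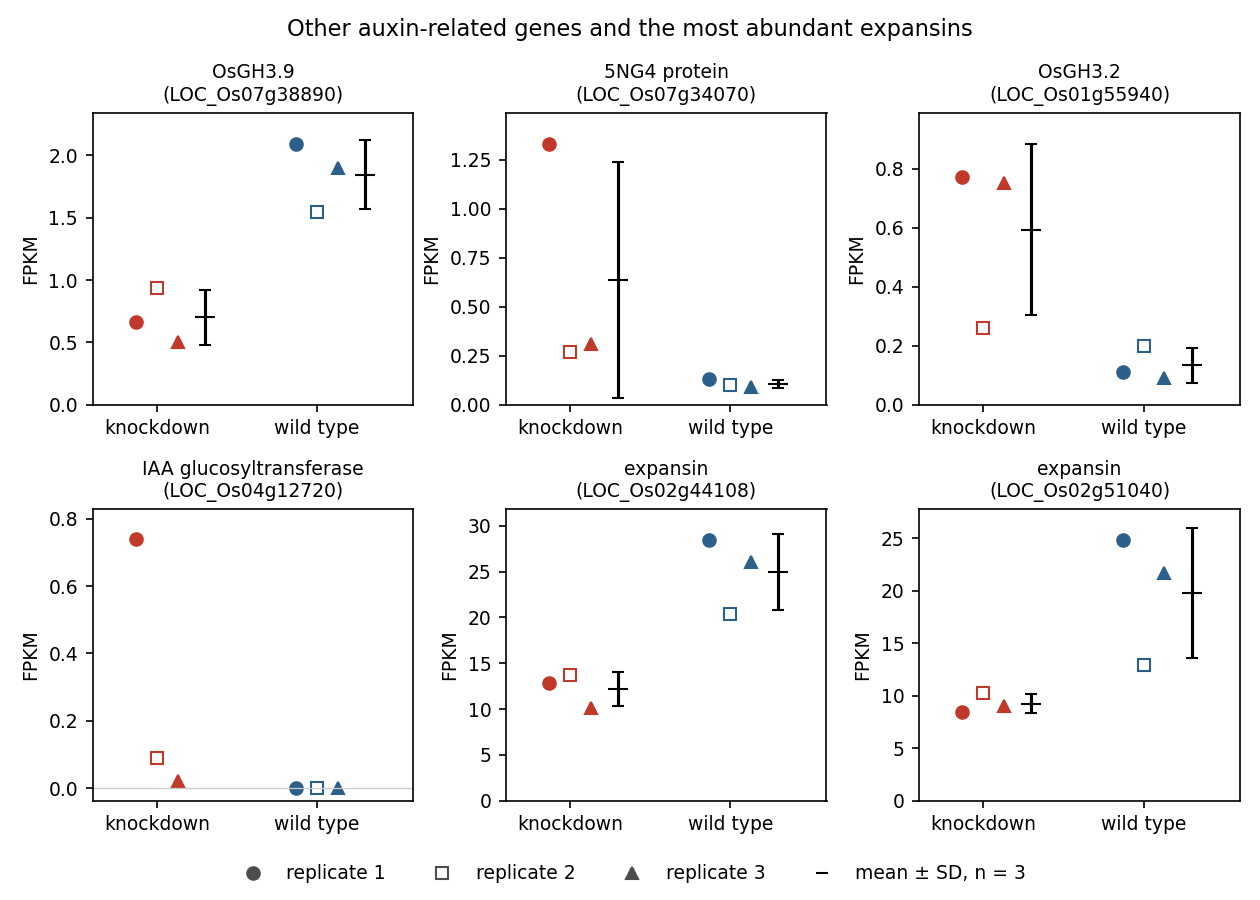
FPKM in each library of the 4 other listed genes with an auxin description and of the 2 most abundant expansin genes, on linear axes; knockdown libraries are red, wild type libraries blue, and bars give the mean ± SD (n = 3), which is left out for the gene listed at 0 in wild type. OsGH3.9 and the expansins are lower in all 3 knockdown libraries, and the other 3 auxin-related genes are higher, with 2 of them led by knockdown replicate 1.

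Markers of other cells and states were among the listed genes too, of which 45.1% in all were lower. Of 13 tapetum genes given by locus ID, which act in the innermost layer of the anther wall, 10 were listed and all 10 were lower, with sums of 538 to 1174 FPKM in the knockdown libraries, against 1806 to 2048 FPKM in the wild type libraries. None of the 10 was at 0 in either genotype. In all 10 replicate 2 was the highest of the knockdown, and in 4 it was the lowest of wild type. Over the 530 genes listed as lower these shares were 67.2% and 54.9%. Both listed core histone genes, which are expressed in dividing cells, were lower, and their sums overlapped, at 20.6 to 43.0 FPKM in the knockdown and 39.2 to 103 FPKM in wild type. All 6 genes found by the word cyclin were lower, at sums of 0.83 to 1.13 FPKM in the knockdown and 2.90 to 3.23 FPKM in wild type. Of these, 5 are described as cyclins and 1 as a cyclin-dependent kinase (LOC_Os10g06800). Each was at a low level, with means of 0.06 to 0.44 FPKM in the knockdown and 0.26 to 1.03 FPKM in wild type. Several have close locus numbers on chromosome 2. All 9 listed heat stress genes were lower as well, at sums of 33.2 to 45.0 FPKM in the knockdown and 82.0 to 128 FPKM in wild type. The 1 listed gene of green tissue, the chlorophyll-binding protein gene LOC_Os01g64960, was higher, at 49.4, 29.5 and 69.7 FPKM in the knockdown, against 25.2, 23.0 and 11.4 FPKM in wild type. The part of any of these cells or states in the SAUR values was not tested.

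No small RNA window called changed named a SAUR gene. The authors listed 11 windows for 21-nt and 113 windows for 24-nt small RNA, of which 8 and 92 lay in genes. None of them named one of the 6 SAUR loci or the 4 other auxin-related genes. The share of all listed genes named by a window was not counted, and the windows were few. Their absence at the SAUR loci is therefore no result about the members. Windows outside these lists were not analysed here, so the small RNA levels at the SAUR genes are not known from these files. The nearest listed gene to each SAUR gene by locus number was not another SAUR gene. These nearest genes lay 180 to 750 locus numbers away, and unlisted genes in between were not analysed. Of the 6 nearest genes 4 were lower and 2 were higher in the knockdown, where 45.1% of all listed genes were lower. SAUR genes often lie in tandem groups of similar copies, and how reads that match several copies were counted is not stated in the labels.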

How the data were processed

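Young panicle mRNA (3 knockdown and 3 wild type libraries) and small RNA (1 library each) were profiled. Per the labels' protocols, Trizol-extracted RNA went into Illumina's kits for stranded mRNA and for small RNA. The tools named, per the submitters' processing notes, are edgeR, Bowtie 1.1.2 and TopHat2 2.1.0, without the step each served. Neither the genome build nor the filters are stated there. The authors deposited FPKM values per library, rounded to 2 decimals, only for genes they called changed. The authors also deposited log2 fold changes (knockdown over wild type), p-values and adjusted p-values. The log2 base was checked against mean FPKM (median difference 0.00318 over 369 genes). Over the 6 SAUR genes the median difference was 0.0190 and the largest 0.0693. The small RNA windows of 500 bases come with a signal (RPTM), a fold ratio and p-values deposited by the authors, of which none was used beyond the gene names.

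The members and lists were chosen with earlier results of these data known. Named genes were all members, all other auxin genes, the 2 most abundant genes of each other keyword list, and the 5 genes most alike within genotypes. The beta-expansin, the beta-glucosidase, both kinase genes and the green tissue gene were named after their values were seen. A re-test of all 1174 listed genes used log2(FPKM + 0.5) and limma 3.58.1 (R 4.3.3). That scale understates the change of low genes. P-values had Benjamini-Hochberg adjustment and served only to compare settings, since the same values had selected the genes. The re-test was tested on simulated data. Settings were pseudocounts of 0.1 and 1, omission of the 25% of genes with the lowest mean, a replicate block, and each library left out. Locus IDs matched 0 rows of the gene table at hand, so no sequence is shown.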

Additional observations from a re-analysis of the deposited data

How the results depend on the processing

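In the re-test with limma, all 6 SAUR genes had an adjusted p of at most 0.05 with every library, and 482 of the 530 genes listed as lower did so (90.9%). The 6 kept that under each other setting and without replicate 2 of both genotypes, an alternative chosen after seeing the data. Across these settings 294 to 518 listed genes passed as lower, and 294 to 466 when libraries were left out. With libraries left out, the log2 differences of the 6 ran from -1.70 to -0.75 (adjusted p 0.00165 to 0.0406). Their median was -1.02 with every library, -1.15 and -0.90 with pseudocounts of 0.1 and 1, and -1.12 to -0.90 with libraries left out, the smallest change being without wild type replicate 1. Leaving a library out cannot make genotypes overlap that did not overlap with every library. The absence of overlap in the 6 was therefore fixed in those settings, and they do not test it. A limit of 2 on the absolute deposited log2 fold change leaves 0 SAUR genes. Of the other auxin genes 2 passed the re-test, 3 with a pseudocount of 0.1 (LOC_Os07g34070 in addition, adjusted p = 0.0281), and 1 to 2 with libraries left out. OsGH3.2 was lost without knockdown replicate 1 or 3 or wild type replicate 1 or 3, settings in which 53.6% to 57.1% of all listed genes passed. Without knockdown replicate 1 the count stayed at 2 because LOC_Os07g34070 passed instead (adjusted p = 0.0223), with a log2 difference of 0.38, against 0.79 with every library. Whether a replicate number links a knockdown library to a wild type library is not stated in the labels. Across listed genes, deviations of same-numbered libraries had r = -0.04, -0.53 and -0.43, and no knockdown library correlated best with its own number. Only genes called different between the genotypes enter these r values, so they cannot decide whether same-numbered libraries were handled together. With a replicate block, 6 SAUR genes and 1 other auxin gene (OsGH3.9) passed, and 630 listed genes did, against 997 without it. The number of reads behind each FPKM value is unknown, which limits the least abundant members most.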

Other observations

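Genes of other hormones and of calcium signalling, which share tissues with auxin responses, were listed in shares that, at these small numbers, are not set apart from the 45.1% of all listed genes that were lower. Of 9 genes described with another hormone, 3 were lower and 6 higher in the knockdown. The most abundant were GASR4 (LOC_Os04g39110) and GASR6 (LOC_Os05g35690), gibberellin-regulated genes of the GASA family of small secreted proteins, which went opposite ways in the authors' deposited table. GASR4 stood at 40.2, 81.5 and 34.4 FPKM in the knockdown, against 114, 67.3 and 139 FPKM in wild type, with a log2 fold change of -1.04. GASR6 stood at 56.0, 13.8 and 87.6 FPKM in the knockdown, against 10.8, 15.1 and 0.63 FPKM in wild type, with a log2 fold change of 2.57. In both genes the genotypes overlapped, with replicate 2 of each genotype beyond or beside that of the other. The genotypes did not overlap in 89.1% of the genes listed as lower, the 6 SAUR genes among them, and in 84.6% of those listed as higher.

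Of 4 listed genes found by the words calmodulin, calcium-binding or EF hand, 1 was lower and 3 were higher. Of the 3, LOC_Os01g10870 is described as a protein kinase of the class that includes calmodulin-dependent kinases. The most abundant, the EF hand gene LOC_Os06g46950, stood at 21.9, 21.3 and 31.0 FPKM in the knockdown, against 13.6, 5.08 and 10.4 FPKM in wild type. The lower one, LOC_Os03g55960, also an EF hand gene, stood at 2.51, 5.90 and 4.44 FPKM in the knockdown, against 10.53, 9.74 and 10.21 FPKM in wild type. Its wild type libraries were close together, while its knockdown libraries differed by more than 2-fold. No gene of the light signalling list was among the listed genes.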
